A study of Mus musculus with 40 samples.

Results

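The enzymes that write and erase methyl groups on DNA were followed through the livers of 40 male mice: the methyltransferases Dnmt1, Dnmt3a and Dnmt3b, the dioxygenases Tet1, Tet2 and Tet3, and Uhrf1, the partner that brings Dnmt1 to newly copied DNA. Every probe set that the platform annotation assigns to 1 of these symbols alone was taken, which gave 19 of the 45037 probe sets on the array, for 7 of 18193 genes. The 7 genes were chosen by function after Dnmt3b had been selected on its measured level, which was lower at 10 μmol/kg CDDO-Im than in the other Wt groups. Dnmt3b values in Wt mice are therefore given as a description with no test, and so are all comparisons of Dnmt3b between genotypes.

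The mice were 12-week-old males on a C57BL/6J background, either wild type (Wt) or Nrf2-null, a line without functional Nrf2 in any cell, bred from heterozygous parents. Nrf2, encoded by Nfe2l2, is the transcription factor that both compounds activate by releasing it from Keap1. D3T is a dithiolethione, given at 300 μmol/kg, and CDDO-Im is a synthetic triterpenoid, given at 3, 10 or 30 μmol/kg. Controls received the vehicle of Cremophor-EL, DMSO and PBS. All mice ate the purified diet AIN-76A, were gavaged 3 times, every other day over 5 days, and were killed 24 hours after the last treatment. Each of the 10 groups held 4 mice with 1 Affymetrix array each, and values are log2 intensities after GCRMA.

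DNA methylation in mammals sits mostly on cytosines followed by guanine. Dnmt3a and Dnmt3b place it on unmethylated DNA, Dnmt1 copies it onto the new strand after replication with the help of Uhrf1, and the Tet enzymes oxidize it so that base excision repair can remove it. Adult liver is made up mostly of non-dividing hepatocytes, in which little DNA is copied.

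The genotype labels were checked with Nfe2l2: probe set 1416543_at lay at 10.77 to 11.75 in the 20 Wt mice and at 2.72 to 3.10 in the 20 Nrf2-null mice. A second probe set, 1457117_at, overlapped between genotypes, at 4.49 to 7.10 and 5.96 to 7.47. Of 5 measured Nrf2 targets 3 were higher with D3T in Wt liver and 1, 3 and 4 at the rising doses of CDDO-Im, and 0 passed in Nrf2-null liver under any of these treatments (limma). The 5 measured hepatocyte markers averaged 15.13 to 15.48 per mouse over all groups. Mice given D3T or 30 μmol/kg CDDO-Im carry lower animal numbers than all other mice, in ranges that do not overlap. In each genotype the 10 μmol/kg mice also carry lower animal numbers than the vehicle mice of that genotype, again without overlap. For comparisons across such separate ranges the treatment and the set of animals cannot be told apart. Of the treated groups, only the 3 μmol/kg mice have a range that overlaps with vehicle, in both genotypes. Across all kept probe sets the median change at 30 μmol/kg in Wt liver was -0.13, which became 0.05 after centring each array on its median and -0.01 after a further quantile normalization, so changes at this dose are read beside their centred values.

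Promoters of Dnmt3b, Dnmt3a and Tet2 are shown because these members carry the results that follow and the level of Dnmt3b ran with that of circadian clock genes across mice, and clock factors bind short motifs near gene starts. Each sequence holds the 250 bases before a transcript start, from RefSeq on GRCm38.p6, written 5′ to 3′ on the strand of the gene, and capitals mark matches to the motifs searched. Which start gave rise to the RNA measured here was not analysed.
Dnmt3b, chr2:153649199-153649448, plus strand: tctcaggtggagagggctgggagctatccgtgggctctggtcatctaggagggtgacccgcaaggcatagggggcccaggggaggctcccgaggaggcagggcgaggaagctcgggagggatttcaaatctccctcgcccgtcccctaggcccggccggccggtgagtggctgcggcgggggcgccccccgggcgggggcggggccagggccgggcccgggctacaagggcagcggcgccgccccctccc
Dnmt3a, most downstream of its starts, chr12:3891494-3891743, plus strand: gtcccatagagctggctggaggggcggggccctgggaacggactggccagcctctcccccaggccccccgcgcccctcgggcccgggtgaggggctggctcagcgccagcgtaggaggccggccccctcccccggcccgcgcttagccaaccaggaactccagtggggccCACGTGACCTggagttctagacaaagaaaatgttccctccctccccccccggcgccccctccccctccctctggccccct
Tet2, chr3:133544391-133544640, minus strand: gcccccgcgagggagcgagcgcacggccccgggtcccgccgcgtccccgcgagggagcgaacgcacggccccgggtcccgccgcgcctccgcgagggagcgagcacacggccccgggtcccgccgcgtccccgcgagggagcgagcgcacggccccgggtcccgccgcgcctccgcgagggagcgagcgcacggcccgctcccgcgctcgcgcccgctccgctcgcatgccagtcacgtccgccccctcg

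All 7 genes had at least 1 window, 12 windows in all. The motifs were the E-box CACGTG of Clock and Bmal1, the D-box TTATGTAA or TTACGTAA of Dbp, Tef, Hlf and Nfil3, the core AGGTCA of the element shared by Ror and Rev-erb receptors, and the antioxidant response element TGACNNNGC of Nrf2, on both strands. Among 32851 promoter windows of the same length, 6.02% held the E-box, 0.931% a D-box, 14% the AGGTCA core and 10.2% the antioxidant response element. The Dnmt3b and Tet2 windows held none of them. The Dnmt3a window held an E-box from 80 to 75 bases before the start, overlapped by the AGGTCA core on the other strand from 76 to 71 bases before it. The other 2 Dnmt3a windows and the 3 Dnmt1 windows held none, the Tet1 window held the core and the antioxidant response element on the same bases, 1 Uhrf1 window held the core, and the other Uhrf1 window and the Tet3 window held none. CpG pairs, the sites these enzymes act on, numbered 21 in the Dnmt3b window, 15 in the Dnmt3a window printed, 38 and 40 in the other 2 of Dnmt3a, and 51 in the Tet2 window, against a median of 6 over all windows. More CpG pairs stood in the Tet2 window than in 99.9% of all windows.

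Of the 19 probe sets, 10 reached a log2 value of 4 on at least 3 mice of some group and were kept for testing, and they cover 4 genes: Dnmt1 with 2 of 3, Dnmt3a with 4 of 5, Dnmt3b with 2 of 2 and Tet2 with 2 of 2. All 4 probe sets of Tet1, the 1 of Tet3 and both of Uhrf1 stayed below that level. Tet1 did not exceed 3.31 on any array, Tet3 lay between 2.81 and 3.83, and Uhrf1 reached 4 in 1 Nrf2-null vehicle mouse alone, at 4.12. These low readings say that the probes saw little signal, not that the RNA was absent. Where a single probe set stands for a gene below, it is the kept one with the highest mean: 1449052_a_at for Dnmt3b, 1423066_at for Dnmt3a, 1422946_a_at for Dnmt1 and 1455300_at for Tet2.

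Dnmt3b, the de novo methyltransferase best known from early development, was lowest in Wt liver at 10 μmol/kg CDDO-Im. On 1449052_a_at the 4 Wt vehicle mice read 7.09, 7.09, 6.32 and 6.83. The 4 Wt mice at 10 μmol/kg read 3.41, 4.79, 4.81 and 3.50, all below every other mouse of the study. The difference from vehicle was -2.70 ± 0.33 (SE), and since 2 of the treated mice lay under the minimum of log2 4 it is not given as a fold. The second probe set, 1418351_a_at, went from 6.37, 5.78, 5.51 and 5.65 with vehicle to 4.21, 4.19, 4.25 and 4.26, a difference of -1.60 ± 0.24. The groups did not overlap on either probe set, as was so for 22% of all kept probe sets in this comparison, and 1 Nrf2-null mouse at the same dose read as low on the second, at 4.21.

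Dnmt3b was not ordered by dose. At 3 μmol/kg the Wt mice read 6.81, 6.54, 6.81 and 7.01 on 1449052_a_at, all within the vehicle range (-0.04 ± 0.33). At 30 μmol/kg they read 5.98, 6.01, 6.37 and 6.01, a difference of -0.74 from vehicle and of 1.96 from the 10 μmol/kg group. The 30 μmol/kg mice were all above the 10 μmol/kg mice and all below the 3 μmol/kg mice, but overlapped with vehicle. Groups did not overlap for 22.3% of all kept probe sets between 30 and 10 μmol/kg and for 20.2% between 30 and 3 μmol/kg. D3T gave 6.64, 6.33, 5.73 and 6.70, a difference of -0.48, and the 10 μmol/kg CDDO-Im group differed from it by -2.22, without overlap, as did 22.2% of all kept probe sets. The doses of the compounds differ in μmol/kg, but the paper chose these as matched in Nrf2 activation, judged by Nqo1 and Gsta2 RNA and NQO1 protein. Whether the doses are matched for Dnmt3b was not tested, so these values stand side by side only.

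**Figure D1:**
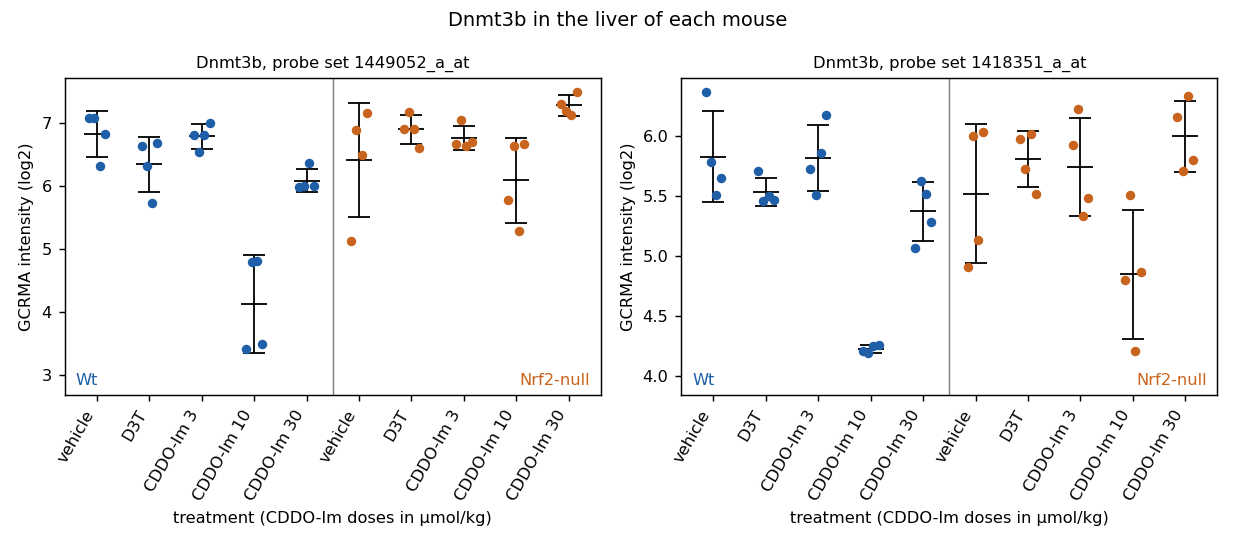
Log2 GCRMA intensity of both Dnmt3b probe sets in each mouse (1 point each) by treatment, Wt in blue and Nrf2-null in orange, with the mean as a dash and the SD as a bar. The 4 Wt mice at 10 μmol/kg CDDO-Im sit lowest on 1449052_a_at, at 3.41 to 4.81, and 1 Nrf2-null vehicle mouse sits at 5.13, below the rest of its group.

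In Nrf2-null mice the same dose gave a split group on 1449052_a_at, a split that 1418351_a_at did not repeat in the same mice. At 10 μmol/kg CDDO-Im these mice read 5.79, 6.64, 5.29 and 6.67 on 1449052_a_at, against 5.13, 6.89, 6.50 and 7.17 with vehicle. The change of -0.32 ± 0.33 did not pass the test (adjusted p = 0.74, limma), nor did -0.67 ± 0.24 on 1418351_a_at (adjusted p = 0.20). The group mean lay 1.97 above that of Wt mice at this dose, with no overlap, in a comparison in which 20.1% of all kept probe sets did not overlap. The responses of the genotypes, Wt minus Nrf2-null, differed by -2.38 on the first probe set and by -0.93 on the second. Both use Wt means at 10 μmol/kg of 4.13 and 4.23, close to the minimum of log2 4, so their sizes are uncertain. The same limit holds for every Dnmt3b difference from this Wt group.

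Replicate 1 of the Nrf2-null vehicle mice, at 5.13, sets much of what Dnmt3b shows against vehicle in this genotype. For D3T, 3 μmol/kg and 30 μmol/kg the differences were 0.49, 0.35 and 0.87, with adjusted p of 0.45, 0.67 and 0.26. Mice given 30 μmol/kg read 7.31, 7.19, 7.14 and 7.51, and the exact two-sided permutation test gave p = 0.057, where 4 mice against 4 cannot go below 0.029. Without that vehicle mouse the changes were 0.06, -0.080 and 0.44, the 10 μmol/kg change on 1449052_a_at was -0.75 (adjusted p = 0.14), and that on 1418351_a_at was -0.88 and passed (adjusted p = 0.031).

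Comparisons between treatments avoid the vehicle group, and the 3 made in Nrf2-null mice were added after the values had been seen. At 30 μmol/kg Dnmt3b lay above its 10 μmol/kg level without overlap on either probe set, by 1.19 ± 0.33 on 1449052_a_at (adjusted p = 0.083) and by 1.15 ± 0.24 on 1418351_a_at (adjusted p = 0.016), in a comparison in which 0.555% of all kept probe sets passed, 0.253% were called higher and 9.54% did not overlap. On 1418351_a_at the 10 μmol/kg mice read 4.80, 5.51, 4.21 and 4.87 and the 30 μmol/kg mice 6.16, 5.71, 6.34 and 5.80. The same probe set was lower at 10 μmol/kg than with D3T (-0.96 ± 0.24, adjusted p = 0.016), where 5.81% of all kept probe sets passed, 3.26% were called lower and 11.4% did not overlap, and 1449052_a_at read -0.81 (adjusted p = 0.14). These calls on 1418351_a_at rested on single mice and on the spread shared over all groups. With only the groups compared in the fit, adjusted p was 0.084 for 30 against 10 μmol/kg and 0.13 for 10 μmol/kg against D3T. The call of 30 against 10 μmol/kg was lost without replicate 1 or 3 of the 10 μmol/kg group or replicate 1 or 4 of the 30 μmol/kg group (0.94 to 1.22), and 10 μmol/kg against D3T without replicate 3 of the 10 μmol/kg group or of the D3T group (-0.89 to -0.75). Between 30 and 3 μmol/kg, where 1.44% passed and 10.2% did not overlap, the difference on 1449052_a_at was 0.52 (adjusted p = 0.48), with no overlap.

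Ordered from low to high on 1449052_a_at, the group means ran from Wt at 10 μmol/kg (4.13) to Wt at 30 μmol/kg (6.09), Nrf2-null at 10 μmol/kg (6.10), Wt with D3T (6.35), Nrf2-null vehicle (6.42), Nrf2-null at 3 μmol/kg (6.77), Wt at 3 μmol/kg (6.79), Wt vehicle (6.83), Nrf2-null with D3T (6.91) and Nrf2-null at 30 μmol/kg (7.29). The first step was the only one between neighbours whose mice did not overlap. By rank the genotypes were furthest apart at 30 μmol/kg, where Nrf2-null mice read 1.20 above Wt mice without overlap, as 34.6% of all kept probe sets did in either direction.

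Tet2, which oxidizes methylcytosine, was also lower at 10 μmol/kg in Wt liver, and it was tested there. On 1455300_at the vehicle mice read 7.79, 8.36, 7.63 and 7.73 and the 10 μmol/kg mice 7.28, 7.50, 7.22 and 7.25, without overlap (-0.56 ± 0.16, adjusted p = 0.017, limma). On 1438781_at vehicle read 7.80, 8.28, 7.51 and 7.42 and 10 μmol/kg read 6.58, 6.81, 6.97 and 6.34 (-1.08 ± 0.19, adjusted p = 0.00025), or 0.474 of vehicle. Of the 8 probe sets tested in this comparison these 2 passed, both lower, where 17% of all kept probe sets passed and 10.3% were called lower. The call on 1455300_at was lost without Wt vehicle replicate 2, the highest of its group (-0.40, adjusted p = 0.11).

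Against D3T, where 18.2% of all kept probe sets passed and 11.2% were called lower, Tet2 was lower at 10 μmol/kg CDDO-Im on both probe sets, with differences of -0.65 ± 0.16 (adjusted p = 0.0057) on 1455300_at and -0.89 ± 0.19 (adjusted p = 0.0015) on 1438781_at. The D3T mice read 7.82 to 8.22 on 1455300_at, within the vehicle range. With 30 μmol/kg 1438781_at was also lower than with vehicle, at 6.92, 6.90, 7.06 and 6.88 (-0.81 ± 0.19, adjusted p = 0.0030), while 1455300_at read 7.33, 7.69, 7.99 and 7.54 and did not pass (-0.24, adjusted p = 0.32). Centring the arrays left -0.64 on 1438781_at (adjusted p = 0.018).

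No Tet2 probe set passed in a comparison of a treatment with vehicle in Nrf2-null mice. At 10 μmol/kg these mice read 7.69, 8.03, 7.84 and 8.18 on 1455300_at, all above the Wt mice of that dose, by 0.62 ± 0.16 (adjusted p = 0.012, and 0.051 without replicate 4). The test of whether the genotypes responded differently to 10 μmol/kg called no member, where 6.66% of all kept probe sets passed, and for D3T it called none, where 0.106% passed. For 30 μmol/kg it passed on 1438781_at (-0.84 ± 0.27, adjusted p = 0.040), where 10.9% of all kept probe sets passed and 7.88% were called lower, but not after centring (-0.68, adjusted p = 0.098) nor when any 1 of 9 of these mice was left out.

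Dnmt3a, the main de novo methyltransferase of adult tissues, was lower at 30 μmol/kg instead. On 1423063_at the Wt vehicle mice read 7.11, 6.67, 6.51 and 6.92, the 10 μmol/kg mice 6.78, 7.06, 6.81 and 6.66, and the 30 μmol/kg mice 5.80, 5.54, 6.01 and 5.45. The 30 μmol/kg mice lay below every other mouse of the study on this probe set. The change from vehicle was -1.10 ± 0.20 (adjusted p = 0.00023), or 0.466 of vehicle, and -0.93 after centring (adjusted p = 0.00085). From 10 to 30 μmol/kg it was -1.13 ± 0.20 (adjusted p = 0.00024), and from 3 to 30 μmol/kg -0.98 ± 0.20 (adjusted p = 0.0018).

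The 4 Dnmt3a probe sets did not give 1 answer. On 1423066_at the 30 μmol/kg mice read 6.30, 6.20, 5.95 and 6.25 against 6.83, 6.20, 6.60 and 6.60 with vehicle, which did not pass (-0.38 ± 0.22, adjusted p = 0.22). From 10 to 30 μmol/kg, where the lower dose read 6.65, 7.31, 7.04 and 6.80, the same probe set was lower without overlap (-0.77 ± 0.22, adjusted p = 0.012), and leaving out replicate 2 of the 10 μmol/kg group gave -0.65 (adjusted p = 0.054). 1460324_at was called lower at 30 μmol/kg (-0.60, adjusted p = 0.032) and lost after centring (-0.43, adjusted p = 0.16), and 1423065_at differed little (-0.11, adjusted p = 0.64). The probe sets can read different transcripts or different parts of the RNA, which was not tested.

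In all, 4 of the 8 probe sets tested at 30 μmol/kg against vehicle in Wt liver were called lower and 0 higher, where 19.8% of all kept probe sets passed and 16.2% were called lower. By the main probe set of each tested gene 0 were called, so all of these calls are on other probe sets. The call on Dnmt3a 1460324_at was lost after centring, as given above, and without any 1 of 5 of the 8 mice. From 10 to 30 μmol/kg 3 of 8 were called, all lower and all of Dnmt3a, where 17.3% of all kept probe sets passed and 12.7% were called lower. The call on 1460324_at (-0.69) was lost with only the groups compared in the fit (adjusted p = 0.064). It was also lost without replicate 2 of the 10 μmol/kg group (-0.48, adjusted p = 0.10) or replicate 4 of the 30 μmol/kg group (-0.59, adjusted p = 0.066). From 3 to 30 μmol/kg 2 of 8 were lower, Dnmt3a 1423063_at and Dnmt1 1435122_x_at (-0.72, adjusted p = 0.025), where 12.3% passed and 10.5% were called lower. The Dnmt1 call was lost after centring (-0.55, adjusted p = 0.082) and without replicate 3 of the 3 μmol/kg group or replicate 3 or 4 of the 30 μmol/kg group (-0.69 to -0.55), which left 1 of 8. For D3T and for 3 μmol/kg against vehicle 0 of 8 passed (limma), where 3.16% and 1.22% of all kept probe sets did, and 0 and 1 had an unadjusted p under 0.05.

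**Figure D2:**
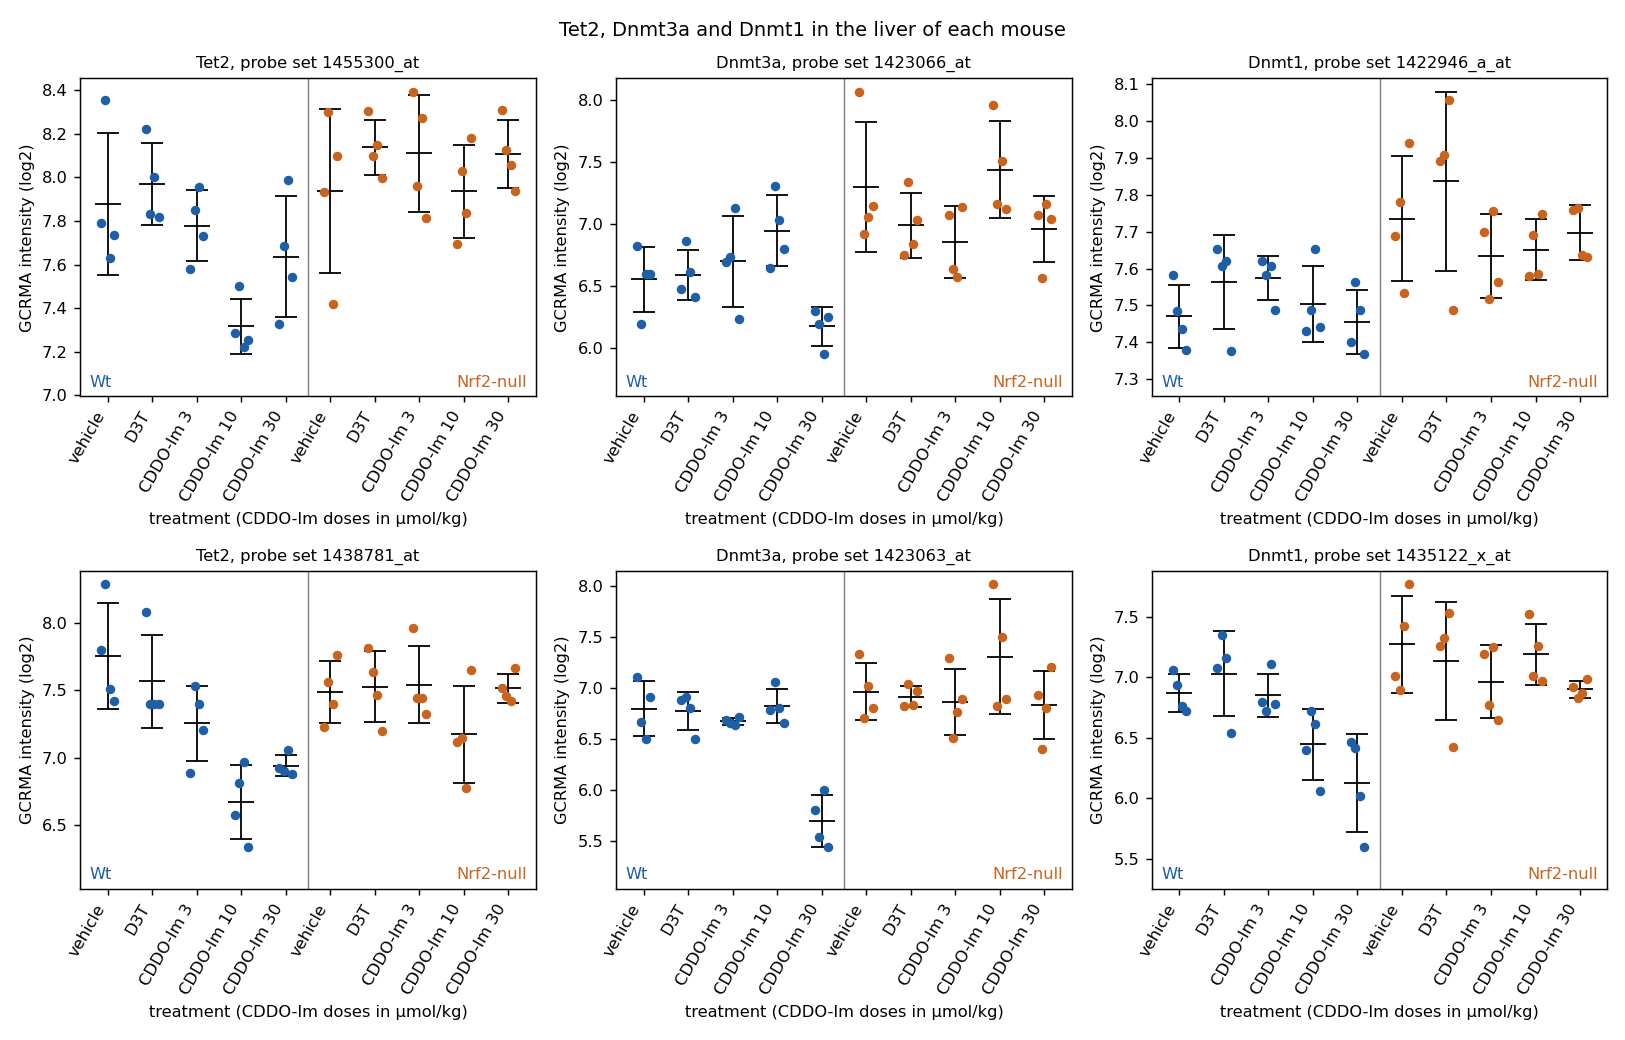
Log2 GCRMA intensity of 2 probe sets each of Tet2, Dnmt3a and Dnmt1 in each mouse by treatment, drawn as for Dnmt3b, with each vertical axis on its own range. Tet2 is lowest in Wt mice at 10 μmol/kg CDDO-Im, whereas Dnmt3a 1423063_at and Dnmt1 1435122_x_at are lowest in Wt mice at 30 μmol/kg.

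With vehicle, Dnmt3a was called higher in Nrf2-null than in Wt liver on 1423066_at alone, at 8.07, 6.92, 7.06 and 7.14 (0.74 ± 0.22, adjusted p = 0.023). It was the only 1 of the 8 probe sets called, where 11.1% of all kept probe sets passed and 6.69% were called higher. Replicate 1, the mouse with the lowest Dnmt3b of its group, held the highest value, and without it the difference was 0.49 (adjusted p = 0.12). Without Wt vehicle replicate 2 it was 0.62 (adjusted p = 0.094). The call was also lost with only the groups compared in the fit (adjusted p = 0.17) and with no minimum level (adjusted p = 0.056). The other Dnmt3a probe sets did not pass with vehicle. At 30 μmol/kg Nrf2-null mice read 7.07, 6.57, 7.17 and 7.04 on 1423066_at (0.79 above Wt, adjusted p = 0.0057) and 6.93, 6.40, 6.80 and 7.21 on 1423063_at (1.14 above Wt, adjusted p = 5.5e-05). The response to 30 μmol/kg differed between genotypes on 1423063_at, by -0.97 ± 0.28 (adjusted p = 0.023, and 0.049 after centring). That call was lost without Nrf2-null or Wt replicate 4 at 30 μmol/kg or Wt vehicle replicate 1, at -0.85, -0.89 and -0.87.

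Dnmt1, the maintenance enzyme, varied little on its main probe set, 1422946_a_at. It read from 7.37 to 8.06 over all 40 mice, and none of the comparisons called it. The nearest was Nrf2-null against Wt at 30 μmol/kg (0.24, adjusted p = 0.052), where the groups did not overlap and 33.1% of all kept probe sets passed. It passed with 1 probe set a gene (adjusted p = 0.046), array weights (0.011), plain variances (0.044), a minimum of log2 6 (0.050) and without Wt replicate 2 (0.048), and was 0.02 after centring (adjusted p = 0.91). The second probe set, 1435122_x_at, ends in the suffix that marks probes which may bind related transcripts. It was lower at 30 μmol/kg in Wt liver, with 6.47, 6.42, 6.02 and 5.60 against 7.06, 6.94, 6.76 and 6.72 (-0.74 ± 0.22, adjusted p = 0.014), and -0.57 after centring (adjusted p = 0.049). That call was lost without replicate 4 of the 30 μmol/kg group (-0.57, adjusted p = 0.082). Since the main probe set gave -0.02 for the same mice, the Dnmt1 result is uncertain.

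Between genotypes at 10 μmol/kg 3 of 8 probe sets were called higher in Nrf2-null liver and 0 lower, where 12.6% of all kept probe sets passed and 8.3% were called higher. These were Tet2 1455300_at, given above, Dnmt1 1435122_x_at (0.74, adjusted p = 0.021) and Dnmt3a 1423065_at (0.47, adjusted p = 0.031). The Dnmt3a call was lost after centring (0.39, adjusted p = 0.084) and without any 1 of 6 of the mice, and the Dnmt1 call was lost without Nrf2-null replicate 1 or Wt replicate 1 or 4 (0.61 to 0.72), each of which left only the Tet2 call. For 30 μmol/kg it was 6 of 8, all higher, where 33.1% passed and 25.8% were called higher. For D3T and for 3 μmol/kg it was 0 of 8, where 8.81% and 8.51% passed (limma, with 1 and 0 at an unadjusted p under 0.05). The median of all kept probe sets at 30 μmol/kg was 0.15 higher in Nrf2-null than in Wt liver, and -0.08 after centring. Centred, Dnmt3a kept its call there on 1423066_at (0.56, adjusted p = 0.036) and 1423063_at (0.91, adjusted p = 0.00038), and so did Dnmt1 on 1435122_x_at (0.55, adjusted p = 0.034). The call on Dnmt3a 1460324_at was lost (from 0.62 to 0.40, adjusted p = 0.14), as were those on both Tet2 probe sets (0.25 and 0.35, adjusted p = 0.27 and 0.15).

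Markers of other cell types differed between the same mice at 30 μmol/kg, where 33.1% of all kept probe sets passed and 25.8% were called higher. Of 4 endothelial markers 2 were higher in Nrf2-null liver, Cdh5 (0.89, adjusted p = 1.6e-05) and Kdr (0.67, adjusted p = 0.028), and so was Ptprc, the only measured lymphocyte marker (0.83, adjusted p = 0.020). Of 6 Kupffer cell markers Cd68 was higher (1.65) and Marco lower, from a Wt mean of 6.02 to a Nrf2-null mean under log2 4, at 2.81. Of 5 hepatocyte markers Apoa1 (0.26) and Cps1 (0.23) were higher, and 0 of 2 stellate cell and 0 of 2 bile duct markers passed. After centring, 1 endothelial marker was higher, 1 Kupffer cell marker was higher and 1 lower, 1 hepatocyte marker was lower and Ptprc did not pass. The part of these cell types in the 6 calls was not tested.

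In Nrf2-null liver 0 of the 10 probe sets passed in any of the 4 comparisons with vehicle (limma). The share of all kept probe sets that passed there was 3.8% with D3T, 1.38% at 3 μmol/kg, 0.444% at 10 μmol/kg and 0.882% at 30 μmol/kg. At an unadjusted p under 0.05 there were 0, 0, 1 and 1.

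**Figure D3:**
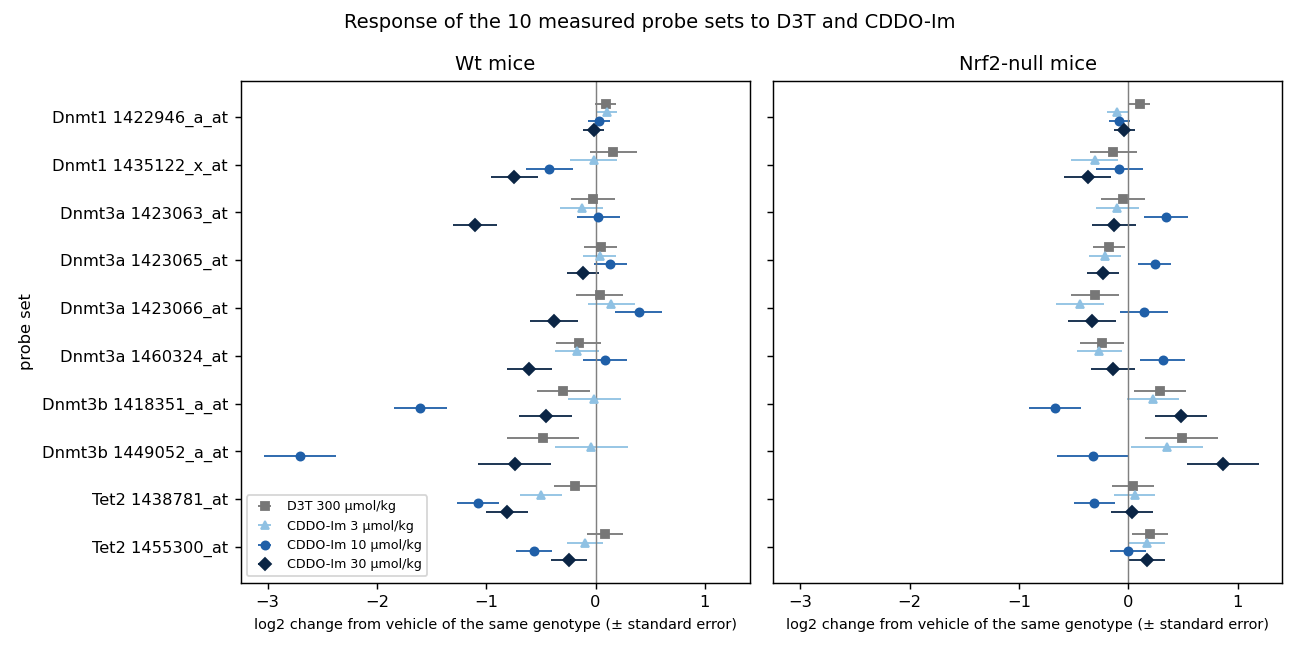
Change from the vehicle of the same genotype, in log2 with its standard error, for the 10 kept probe sets and the 4 treatments, Wt on the left and Nrf2-null on the right. In Wt mice Dnmt3b stands out at 10 μmol/kg, at -2.70 and -1.60, and Dnmt3a 1423063_at at 30 μmol/kg, at -1.10, while no Nrf2-null change passed the test.

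The lists of genes around the members were chosen with results of these data known, and 1 kept probe set, the brightest, stands for each gene. Of 7 measured readers of methylated DNA, none passed at 10 μmol/kg in Wt liver and 3 were lower at 30 μmol/kg, where 19.8% of all kept probe sets passed: Zbtb4 (-0.55, adjusted p = 0.0028), Mbd2 (-0.29, adjusted p = 0.015) and Zbtb33 (-0.28, adjusted p = 0.019). Of 9 measured partners of the methyltransferases and Tet enzymes, none passed at 10 μmol/kg and 3 were lower at 30 μmol/kg, beside the same 19.8%, the histone H3 lysine 9 methyltransferases Ehmt2 (-0.42, adjusted p = 0.016) and Ehmt1 (-0.37, adjusted p = 0.044) and the deubiquitinase Usp7 (-0.28, adjusted p = 0.023). Their medians at 30 μmol/kg, -0.13 and -0.14, lay beside -0.13 for all kept probe sets. After centring, 1 reader and 0 partners remained called lower, with medians of 0.04 and 0.03.

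Of 7 measured genes of base excision repair and demethylation, Apex1, the endonuclease that cuts abasic sites, was lower at 10 μmol/kg (-0.74, adjusted p = 0.0083), and the uracil glycosylase Smug1 (-0.84, adjusted p = 0.040) and the ligase Lig3 (-0.33, adjusted p = 0.011) were lower at 30 μmol/kg, where 0 passed after centring. Of 11 measured genes of the methionine cycle, which makes the methyl donor S-adenosylmethionine, Mat2b, a regulatory subunit of methionine adenosyltransferase, was higher at 10 μmol/kg (0.26, adjusted p = 0.028), and none passed at 30 μmol/kg. Of 7 genes that set the levels of 2-oxoglutarate and succinate, the cosubstrate and product of Tet enzymes, none passed at 10 μmol/kg (1 higher after centring) and Sdhb was lower at 30 μmol/kg (-0.28, adjusted p = 0.025, and none after centring). Against vehicle in Wt liver 17% of all kept probe sets passed at 10 μmol/kg and 19.8% at 30 μmol/kg. For D3T and 3 μmol/kg none of the genes of these 5 lists passed in Wt liver, other than 1 lower gene of the last list at 3 μmol/kg after centring.

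In Nrf2-null liver 0 of the genes of these lists passed at 3 or 10 μmol/kg, Bhmt2, a methyltransferase that remakes methionine, was higher with D3T (0.55, adjusted p = 0.00026) and Mat2b was lower at 30 μmol/kg (-0.37, adjusted p = 0.022). Between genotypes at 30 μmol/kg, 5 of the 11 measured genes of the methionine cycle were higher and 1 was lower in Nrf2-null liver. They were led by Cbs, which draws homocysteine out of the cycle (1.16, adjusted p = 7.7e-05). In this comparison 33.1% of all kept probe sets passed and 25.8% were called higher. After centring the count for the cycle was 1 higher and 2 lower.

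Dnmt1 and Uhrf1 are known to rise in dividing cells, and 7 genes of DNA synthesis and mitosis were measured beside them. None passed at 10 μmol/kg in Wt liver (1 higher after centring), where the mean level of the list was 6.02 to 6.19 per mouse against 5.77 to 6.15 with vehicle. Mcm6, a subunit of the replicative helicase, was higher at 30 μmol/kg (1.13, adjusted p = 0.038), and Lig1, which joins new strands, with D3T (adjusted p = 0.050, from a vehicle mean under log2 4, at 3.47, to 4.39). Mki67 and Top2a were not kept.

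In whole liver, fewer cells of a type and less RNA per cell cannot be told apart. At 10 μmol/kg in Wt liver 0 of 5 hepatocyte, 0 of 4 endothelial and 0 of 2 stellate cell markers passed, and of the others Marco, a scavenger receptor of macrophages and 1 of 6 Kupffer cell markers, was higher (adjusted p = 0.012, from a vehicle mean under log2 4, at 2.52, to 4.49) and Sox9, 1 of 2 bile duct markers, was lower (-0.78, adjusted p = 0.033). For 30 μmol/kg Cps1 (-0.22, adjusted p = 0.0029) and Apoa1 (-0.15, adjusted p = 0.031) of the hepatocyte markers and Cdh5 of the endothelial markers (-0.52, adjusted p = 0.0096) were lower, Marco was higher (a mean of 6.02, adjusted p = 4.5e-05), and after centring none of the first 3 passed. The hepatocyte list averaged 15.36 to 15.45 per mouse with vehicle, 15.31 to 15.39 at 10 μmol/kg and 15.22 to 15.31 at 30 μmol/kg in Wt liver. Ptprc, the only measured lymphocyte marker, passed at neither dose. Of all kept probe sets 17% passed at 10 μmol/kg and 19.8% at 30 μmol/kg. Cd3e, Cd79a and Krt19, which define T cells, B cells and bile ducts, were not kept. The part of other cell types in the members' values was not tested.

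The genes whose levels followed Dnmt3b 1449052_a_at most closely over the 40 mice were Chka (r = 0.92), the clock gene Arntl, which encodes Bmal1 (r = 0.91), Slc30a10 (r = 0.89), Lonrf3 (r = 0.89) and Ypel2 (r = 0.88). With each group's mean taken out these were 0.82, 0.83, 0.77, 0.69 and 0.81. These are descriptions over mice that share groups and arrays, and the Wt mice at 10 μmol/kg stand apart from the rest. Dnmt3a was followed by Rassf3 (0.82), Cox11 (0.80) and Gprc5c (0.78), Dnmt1 by Itm2c (0.77), Papolg (0.77) and Tcf4 (0.76), and Tet2 by Dapk1 (0.78), Myl12b (0.78) and Ifitm1 (0.75). The 2 probe sets of Dnmt3b followed each other with r = 0.87, and those of Dnmt1 with r = 0.68.

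The core clock is a feedback loop in which Bmal1 and Clock drive genes that peak late in the light phase, here called evening genes. The products of some evening genes in turn repress Arntl and other morning genes. At 10 μmol/kg in Wt liver 5 of 7 evening genes were higher (6 after centring), led by Dbp (6.83, adjusted p = 0.00034), and 5 of 5 morning genes were lower, among them Arntl (-3.88, adjusted p = 0.00012) and Npas2 (adjusted p = 0.0015), which fell from a mean of 6.98 to one under log2 4, at 2.77. From 10 to 30 μmol/kg 6 of 7 evening genes were lower and 5 of 5 morning genes were higher, and at 30 μmol/kg against vehicle none passed. Of all kept probe sets 17% passed at 10 μmol/kg against vehicle, 17.3% from 10 to 30 μmol/kg and 19.8% at 30 μmol/kg against vehicle. Subtracting the average log2 level of the morning genes from that of the evening genes gave 1 clock difference per mouse.

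By group mean, Dnmt3b was lowest in the group where this difference was highest, Wt at 10 μmol/kg. Mouse by mouse the order was not the same. Nrf2-null vehicle replicate 1 had a clock difference of 3.08, above Wt replicates 1, 2 and 3 at 10 μmol/kg (2.44, 2.38 and 2.30). Its Dnmt3b level nevertheless lay above those of all Wt mice at that dose. In Wt mice the clock difference was 2.30 to 3.99 at 10 μmol/kg and -2.84 to -2.54 with vehicle, without overlap. With D3T it lay between them, at -1.43, 0.06, 0.49 and -0.11, and the mouse at 0.49 had the lowest Dnmt3b of its group, 5.73. In the 30 μmol/kg group it lay at -2.52 to -2.26, while Dnmt3b lay below the 3 μmol/kg mice, as given above.

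Among Nrf2-null mice the extremes of both measures fell on the same mice. Vehicle replicate 1 had a clock difference of 3.08 and a Dnmt3b level of 5.13, while the other 3 vehicle mice had -3.31 to -2.46 and 6.50 to 7.17. At 10 μmol/kg replicates 1 and 3 had clock differences of 1.99 and 2.33 and Dnmt3b levels of 5.79 and 5.29, and replicates 2 and 4 had -2.37 and -2.55 and levels of 6.64 and 6.67. These 3 mice held the highest clock differences and the lowest Dnmt3b levels of the 20 Nrf2-null mice on 1449052_a_at, and 1 of them was given vehicle alone. The same 3 mice held the highest Dnmt3a levels on 1423066_at, at 8.07, 7.96 and 7.51. Nrf2-null D3T replicate 4, with the next highest clock difference of 1.16, read 6.62 for Dnmt3b, the lowest of its group. Vehicle replicate 3, with a clock difference of -2.46, read lower, at 6.50. On 1418351_a_at the match was looser, and replicate 4 at 10 μmol/kg, at a clock difference of -2.55, read nearly as low as replicate 1. With group means taken out, Dnmt3b and the clock difference in Nrf2-null mice correlated at -0.94 on 1449052_a_at and -0.63 on 1418351_a_at. In Wt mice these were -0.56 and -0.26. The values in Nrf2-null mice lean on the few mice with extreme clock differences. With group means left in they were -0.86 and -0.67, and -0.67 and -0.44 without the 2 mice farthest from the median clock difference. Rank correlations in Nrf2-null mice were -0.65 and -0.53.

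On Dnmt3a 1423066_at Wt mice at 10 μmol/kg read 6.65 to 7.31 and Wt vehicle mice 6.20 to 6.83, which overlap, and the change of 0.39 did not pass (adjusted p = 0.22). With group means taken out, this probe set and the clock difference correlated at 0.73 in Nrf2-null mice but at 0.05 in Wt mice. For Tet2 the values in Wt and Nrf2-null mice were -0.58 and -0.64 on 1438781_at, and -0.27 and -0.34 on 1455300_at. The labels give no hour of the day for any mouse, the clock genes and the members were read from the same arrays, and the part of clock phase in the members' values was not tested.

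**Figure D4:**
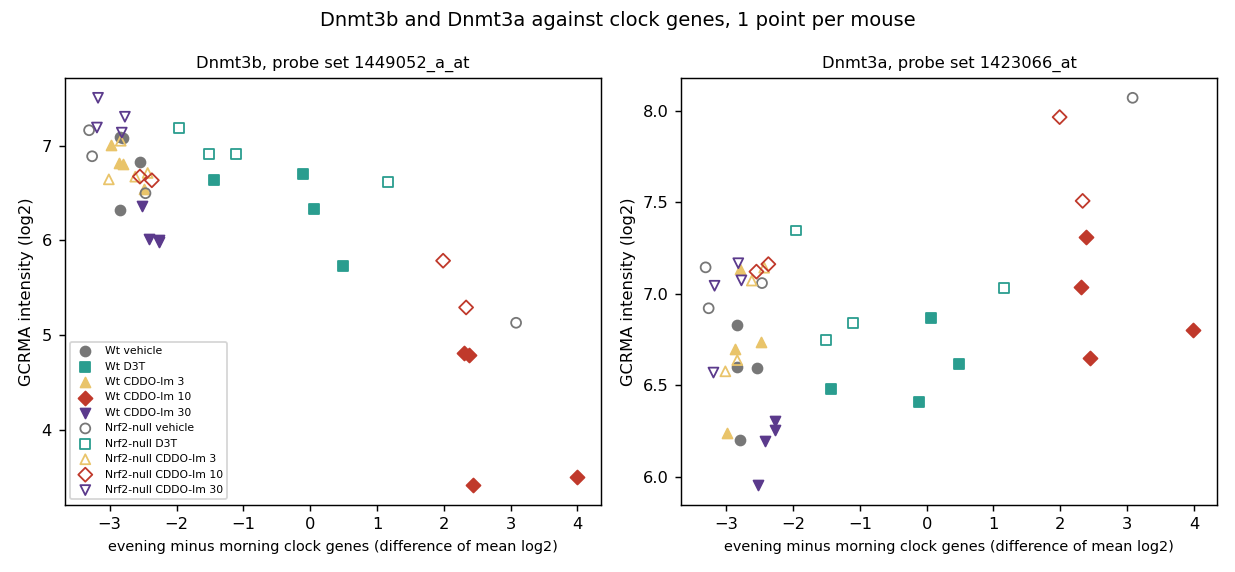
Log2 intensity of Dnmt3b 1449052_a_at (left) and Dnmt3a 1423066_at (right) against the clock difference, evening minus morning genes in log2, with 1 point per mouse, filled for Wt and open for Nrf2-null, and the treatment by symbol. The Wt mice at 10 μmol/kg and 3 Nrf2-null mice, at 3.08, 2.33 and 1.99, sit at the right, with Dnmt3b at 3.41 to 5.79.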

How the data were processed

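The deposited table holds log2 intensities of 45037 probe sets for 40 mouse liver arrays, which the authors computed from the scanned Affymetrix mouse arrays with GCRMA, a method that corrects background by probe GC content, normalizes quantiles and summarizes by median polish. The version of GCRMA is not given in the sources used here. Present calls and the fold filter the authors applied later were not used. Genotype, treatment and replicate number came from the labels, and all 40 arrays were used.

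Symbols came from the platform annotation. Probe sets with 1 symbol numbered 34945, with several 932 and with none listed here 9160, and only the first were named. Filtering required a log2 value of 4 on 3 of the 4 mice in some group, and 18935 probe sets met this. Array medians over these ran from 7.50 to 7.86, no 2 arrays were identical, and the number of arrays limits the precision. Differences were tested in R 4.3.3 with limma (version 3.58.1, using statmod 1.5.0). A single model held all 10 groups, its variances were moderated with a trend and robustly, and Benjamini-Hochberg adjustment covered every kept probe set of a comparison, with 0.05 as the threshold. Nothing says that the mice of a group came from separate litters or cages, so p-values measure the spread between these mice. Exact permutation tests were two-sided. Promoter sequences, all on GRCm38.p6, came from RefSeq. Figures were drawn with Matplotlib in Python.

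The members and gene lists were chosen with earlier results of these data known, the Dnmt3b pattern in Wt mice among them. Named genes are all members, up to 3 genes of a list in a comparison, those past the threshold with the largest change, Nfe2l2, and the genes most correlated with each member. Mki67, Top2a, Cd3e, Cd79a and Krt19 were named after their values were seen. Alternatives were other minimum levels, centring, quantile normalization, array weights, plain variances, only the groups compared, 1 probe set a gene, another choice of probe set, exact Wilcoxon tests, the replicate number as a block and leaving out each mouse.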

Additional observations from a re-analysis of the deposited data

Results flagged for a closer look

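The response to 30 μmol/kg CDDO-Im differed between genotypes, by a test of the difference itself, for Dnmt3a on 1423063_at (-0.97) and for Tet2 on 1438781_at (-0.84), both more negative in Wt than in Nrf2-null mice. The Tet2 difference did not pass with centred arrays (-0.68, adjusted p = 0.098), array weights (adjusted p = 0.051), quantile normalization (adjusted p = 0.096) or no minimum level (adjusted p = 0.092), nor without any 1 of 9 mice. The Dnmt3a difference did not pass with no minimum level (adjusted p = 0.055) nor without any 1 of 3 mice.

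A single mouse stood apart from the other 3 of its group in 2 of 40 sets of 4 values, both of Dnmt3b on 1449052_a_at, and chance alone flags about 1 in 20 such sets. Wt replicate 3 at 30 μmol/kg read 6.37 against 5.98 to 6.01, a gap of 0.923 of the range of its group. Nrf2-null replicate 2 at 3 μmol/kg read 7.05 against 6.65 to 6.71, a gap of 0.835 of the range.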

How the results depend on the processing

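Counts of members are by the main probe set of each tested gene. Leaving out 1 mouse at a time, the count ranged from 0 to 1 for 10 μmol/kg against vehicle and for 30 against 10 μmol/kg in Wt liver (1 each with all mice), from 0 to 1 for 10 μmol/kg against D3T in Nrf2-null liver (0), and between genotypes from 0 to 2 with vehicle (1), from 0 to 1 with D3T (0), from 0 to 1 at 10 μmol/kg (1) and from 1 to 3 at 30 μmol/kg (2). Between genotypes at 30 μmol/kg the count was 1 with centred arrays, with quantile normalization and with no minimum level. With vehicle it was 2 with array weights and 0 with no minimum level, with only the groups compared and with the most variable probe set of each gene. Array weights gave 1 between genotypes with D3T, 1 from 3 to 30 μmol/kg in Wt liver, and 1 each in Nrf2-null liver for 10 μmol/kg against D3T and for 30 against 10 μmol/kg (0 each otherwise). The most variable probe set gave 3 for 30 μmol/kg against vehicle and 2 for 30 against 3 μmol/kg in Wt liver, and 2 for the genotype difference at 30 μmol/kg (0 each). Unadjusted exact Wilcoxon tests gave 1 each for 30 against 10 and 30 against 3 μmol/kg in Nrf2-null liver (0 each). The other 412 counts stayed within 1.5 times. Of values for single probe sets 1 reversed, Dnmt3b on 1449052_a_at at 3 μmol/kg in Nrf2-null liver, from 0.35 to -0.080 without vehicle replicate 1, within a range of -0.080 to 0.60 over the left-out mice.

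The calls of Tet2 on 1438781_at at 10 μmol/kg and of Dnmt3a on 1423063_at at 30 μmol/kg against vehicle held under every alternative run, at -1.15 to -1.02 and -1.10 to -0.93 apart from left-out mice. Blocking on the replicate number, the count of members called for 10 μmol/kg against vehicle in Wt liver was 1, and the block changed no other call. Mice with the same number did not deviate together (mean r = -0.002 over 180 pairs). Correlations with mice of other groups were averaged by replicate number, and for 10 of 40 mice their own number, 1 of 4, had the highest mean. Signals near log2 3, as for Tet1, Tet3 and Uhrf1, lie too close to background to show a change.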
